A study of Mus musculus with 6 samples.

Results

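The 10 genes described here encode secreted ligands that act on blood and lymphatic vessels, and they were chosen by name, with no threshold on a measured value. The choice was made with earlier results of these data known. The genes were the VEGF ligands Vegfa, Vegfb, Vegfc, Vegfd and Pgf, the angiopoietins Angpt1, Angpt2 and Angpt4, and the angiopoietin-like genes Angptl2 and Angptl4. All 10 were among the 27179 genes of the count table and among the 15219 genes tested. Expression was measured by bulk RNA-seq in fibroblasts of the pubertal mammary gland of 6-week-old FVB/N mice (FVB/NJ in the study's methods), with no transgene or treatment in either group. Cells were sorted by flow cytometry as Lin-CD24-Pdgfrα+, where Lin stands for CD31, CD45 and TER-119, and then split by surface CD34 into CD34hi and CD34lo fibroblasts. The mice formed 3 pools of 2 animals, and each pool gave 1 CD34hi and 1 CD34lo library, so that there were 6 libraries and n = 3 pools in each population. The single comparison was CD34hi against CD34lo. Its main fit did not pair the libraries by pool, so its p-values measure the spread of libraries within each population. Fits with the mouse pool as a block were alternatives.

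Fibroblasts surround the ducts and vessels of the mammary gland, and they release factors that endothelial cells sense through receptor tyrosine kinases. VEGF-A acts mainly through VEGFR2 (Kdr) and drives the sprouting of blood vessels, VEGF-B and placental growth factor (Pgf) bind VEGFR1 (Flt1), and VEGF-C and VEGF-D act through VEGFR3 (Flt4) and drive the growth of lymphatic vessels. Angiopoietin-1 activates the receptor TIE2 (Tek) and stabilises vessels, angiopoietin-2 can oppose it depending on the context, and ANGPTL4 is best known as an inhibitor of lipoprotein lipase.

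RefSeq promoter windows of GRCm38.p6, which run from 250 bases before to 50 bases after a start site, were held for 7 of the 10 genes. There was no entry for Angpt1, Angpt2 and Angptl4. The windows of Vegfc, Vegfd and Pgf are shown because these were the VEGF ligands with the largest differences between the populations, and that of Angpt4 because it was the angiopoietin with an entry. The windows are chr8:54077282-54077581 on the plus strand for Vegfc, chrX:164373272-164373571 on the plus strand for Vegfd, chr12:85177264-85177563 on the minus strand for Pgf (the more upstream of its 2 entries) and chr2:151910957-151911256 on the plus strand for Angpt4. Each is written from 5′ to 3′ along its gene. Capitals mark the GC box GGGCGG and the hypoxia response element cores ACGTG and GCGTG, each searched on both strands, and the TATA box TATAAA on the gene's strand.
Vegfc: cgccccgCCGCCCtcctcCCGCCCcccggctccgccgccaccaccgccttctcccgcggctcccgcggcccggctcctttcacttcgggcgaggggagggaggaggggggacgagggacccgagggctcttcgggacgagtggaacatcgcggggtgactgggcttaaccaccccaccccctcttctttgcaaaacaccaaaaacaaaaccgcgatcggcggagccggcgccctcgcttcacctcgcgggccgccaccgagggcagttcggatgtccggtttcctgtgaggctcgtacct
Vegfd: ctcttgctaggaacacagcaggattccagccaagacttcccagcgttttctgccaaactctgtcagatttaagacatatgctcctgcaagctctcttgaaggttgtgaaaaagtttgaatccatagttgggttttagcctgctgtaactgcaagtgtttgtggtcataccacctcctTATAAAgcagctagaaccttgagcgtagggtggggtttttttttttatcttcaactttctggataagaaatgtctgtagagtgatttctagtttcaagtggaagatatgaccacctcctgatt
Pgf: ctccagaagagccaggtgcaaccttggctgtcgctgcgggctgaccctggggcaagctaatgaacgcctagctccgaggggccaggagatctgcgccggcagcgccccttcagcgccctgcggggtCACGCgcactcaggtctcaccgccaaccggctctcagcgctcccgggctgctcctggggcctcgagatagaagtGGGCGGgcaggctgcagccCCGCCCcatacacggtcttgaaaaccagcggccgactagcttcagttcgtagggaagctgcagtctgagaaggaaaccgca
Angpt4: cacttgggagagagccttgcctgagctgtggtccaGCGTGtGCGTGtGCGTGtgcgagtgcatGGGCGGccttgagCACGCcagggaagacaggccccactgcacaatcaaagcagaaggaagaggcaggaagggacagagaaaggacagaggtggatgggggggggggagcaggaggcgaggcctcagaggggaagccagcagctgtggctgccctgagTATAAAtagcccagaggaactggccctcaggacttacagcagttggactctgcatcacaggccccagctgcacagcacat

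The Vegfc window was rich in G and C (70.3% GC, 35 CpG dinucleotides) and held 2 GC boxes and no TATAAA. The Vegfd window was poor in both (42.0% GC, 2 CpG) and held a TATAAA whose first base lay at position -73 from the start. Pgf had 66.0% GC, 23 CpG, 2 GC boxes and 1 GCGTG. Angpt4 had 61.3% GC, 7 CpG, 4 GCGTG, 1 GC box and a TATAAA at position -30. Over all 32544 windows of this length the medians were 53.0% GC and 7 CpG. GGGCGG was found in 35.9% of all windows, GCGTG in 32.6%, ACGTG in 19.7% and TATAAA in 8.28%. In the coordinates of the count table (GRCm38/mm10), the genes themselves span chr8:54077532-54186454 (Vegfc), chrX:164373548-164402647 (Vegfd), chr12:85166641-85177285 (Pgf), chr8:18691337-18741551 (Angpt2), chr15:42424723-42676795 (Angpt1) and chr2:151911332-151944654 (Angpt4). The Angpt4 window ended before its gene began in the count table, so that its position -30 refers to the RefSeq start only. The motif matches describe letters in a window and say nothing about the binding of a factor.

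The libraries held 28764779 to 52402410 counts, and 3 counts corresponded to 0.0553 to 0.108 CPM, the count scaled by the effective size of its library. Cd34, the gene behind the sort, stood at 2571 ± 75.2 CPM in CD34hi and 634 ± 158 CPM in CD34lo libraries (SD, n = 3), which agrees in direction with the labels, although the submitters also name the CD34lo libraries as CD34 negative. In the quasi-likelihood test of edgeR, with p-values adjusted after Benjamini and Hochberg, 35.6% of the 15219 genes passed an adjusted p of 0.05, 16.9% as higher in CD34hi and 18.7% as higher in CD34lo fibroblasts. Fibroblast markers were abundant in both populations, with a summed level of 28956 to 32414 CPM in CD34hi and 32863 to 37327 CPM in CD34lo libraries. Of the 8 markers, 2 (Igfbp5 and Pdpn) were higher in CD34hi, 5 (among them Pdgfra and Pdgfrb) were higher in CD34lo and 1 did not pass.

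Of the 10 ligand genes, 8 passed this test, beside 35.6% of all genes. Vegfb, Vegfd and Pgf were higher in CD34hi fibroblasts (3 of 10, beside 16.9% of all genes). Vegfc, Angpt1, Angpt2, Angpt4 and Angptl4 were higher in CD34lo fibroblasts (5 of 10, beside 18.7%). Vegfa and Angptl2 did not pass. The values of 7 genes did not overlap between the 3 CD34hi and 3 CD34lo libraries, beside 50.1% of all genes tested. The median log2 fold change of the 10 genes was -0.90 and that of all genes tested was -0.0064, where negative values are lower in CD34hi. Levels below are given as RPKM, the CPM divided by gene length in kilobases, so that genes can be compared with each other.

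**Figure D1:**
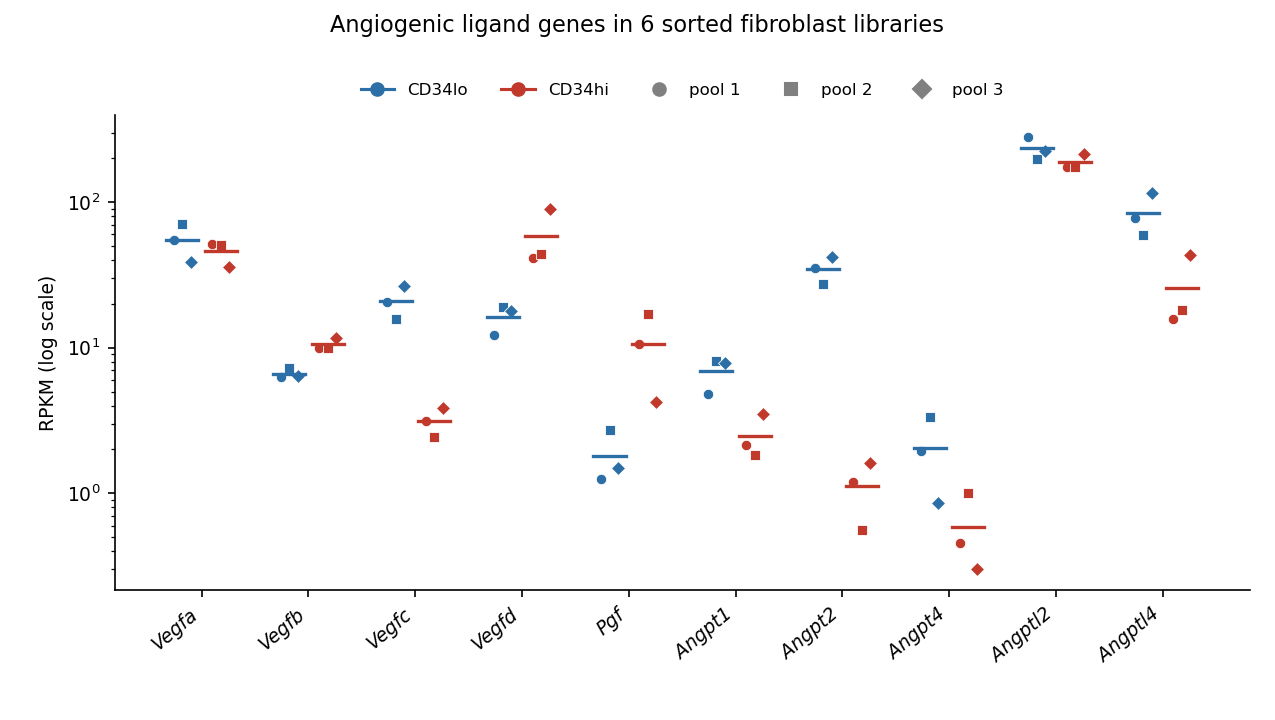
RPKM (vertical axis, log scale) of the 10 ligand genes in the 6 libraries, with CD34lo in blue and CD34hi in red, marker shapes for the 3 pools and bars for the means. Angpt2 and Vegfc sit far lower in CD34hi, Vegfd and Pgf sit higher, and the points of Vegfa, Angptl2 and Angpt4 overlap between the populations.

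Among the VEGF ligands, Vegfc and Vegfd differed in opposite directions. Vegfc, which encodes the main lymphatic growth factor, measured 3.11, 2.44 and 3.85 RPKM in CD34hi libraries 1 to 3 and 20.6, 15.7 and 26.7 RPKM in CD34lo libraries 1 to 3. All CD34hi values lay below all CD34lo values. Its log2 fold change was -2.74 ± 0.24 (SE), a 6.69-fold higher level in CD34lo (edgeR adjusted p = 4.84e-05), and the differences within the 3 pools were nearly equal at -2.72, -2.67 and -2.79. Vegfd, which encodes the related ligand VEGF-D, measured 41.4, 43.8 and 89.3 RPKM in CD34hi and 12.2, 19.1 and 17.8 RPKM in CD34lo libraries. Every CD34hi library lay above every CD34lo library, and the CD34hi library of pool 3 stood well above the other two. The log2 fold change was 1.83 ± 0.31, or 3.57-fold (edgeR adjusted p = 0.00193), and without that library it was 1.39.

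Pgf, which encodes a ligand of VEGFR1, gave the largest rise in CD34hi fibroblasts among the 10 genes and also the largest SE of the VEGF ligands. It measured 10.7, 17.0 and 4.23 RPKM in CD34hi and 1.25, 2.70 and 1.50 RPKM in CD34lo libraries. The populations did not overlap, but the CD34hi library of pool 3 was the lowest of its group. This gave a log2 fold change of 2.57 ± 0.50, or 5.95-fold (edgeR adjusted p = 0.00385). Vegfb, a VEGFR1 ligand with little effect on sprouting, measured 9.92, 9.92 and 11.7 RPKM in CD34hi and 6.29, 7.24 and 6.39 RPKM in CD34lo libraries. This was a small difference with a small spread, at a log2 fold change of 0.67 ± 0.14, or 1.59-fold (edgeR adjusted p = 0.00642).

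Vegfa, the principal blood vessel growth factor, was among the most expressed of the VEGF ligands in both populations. It measured 51.5, 50.6 and 35.8 RPKM in CD34hi and 54.9, 70.3 and 38.8 RPKM in CD34lo libraries. CD34hi was lower within each of the 3 pools, but the groups overlapped because pool 3 was low in both populations. Across libraries the log2 fold change was -0.25 ± 0.23 with a 95% interval of -0.77 to 0.27 (edgeR adjusted p = 0.430). Counts were summed over each gene, and the annotation holds 13 transcripts of Vegfa, so that its splice forms were not separated.

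The summed RPKM of the 5 VEGF ligands was 117 to 145 in CD34hi and 91.2 to 115 in CD34lo libraries, so that the make-up differed more than the sum. Vegfc took 1.97% to 2.67% of this sum in CD34hi and 13.6% to 29.3% in CD34lo libraries. Vegfd took 35.4% to 61.6% in CD34hi and 12.8% to 19.5% in CD34lo libraries. Vegfa took 24.7% to 44.2% in CD34hi and 42.6% to 61.1% in CD34lo libraries, and these ranges overlapped. The log2 ratio of Vegfc plus Vegfd to Vegfa, taken within each library per length, was 0.35 ± 0.90 (SD) in CD34hi and -0.52 ± 0.63 in CD34lo. It was higher in CD34hi in each pool, by 0.53, 0.88 and 1.18. The difference of 0.87 did not pass between the groups of libraries (two-sided exact permutation test, p = 0.3, where 0.1 is the smallest possible). Within pools the exact sign-flip test gave p = 0.25, the smallest that 3 pools allow. Without the CD34hi library of pool 3 the difference was 0.35.

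**Figure D2:**
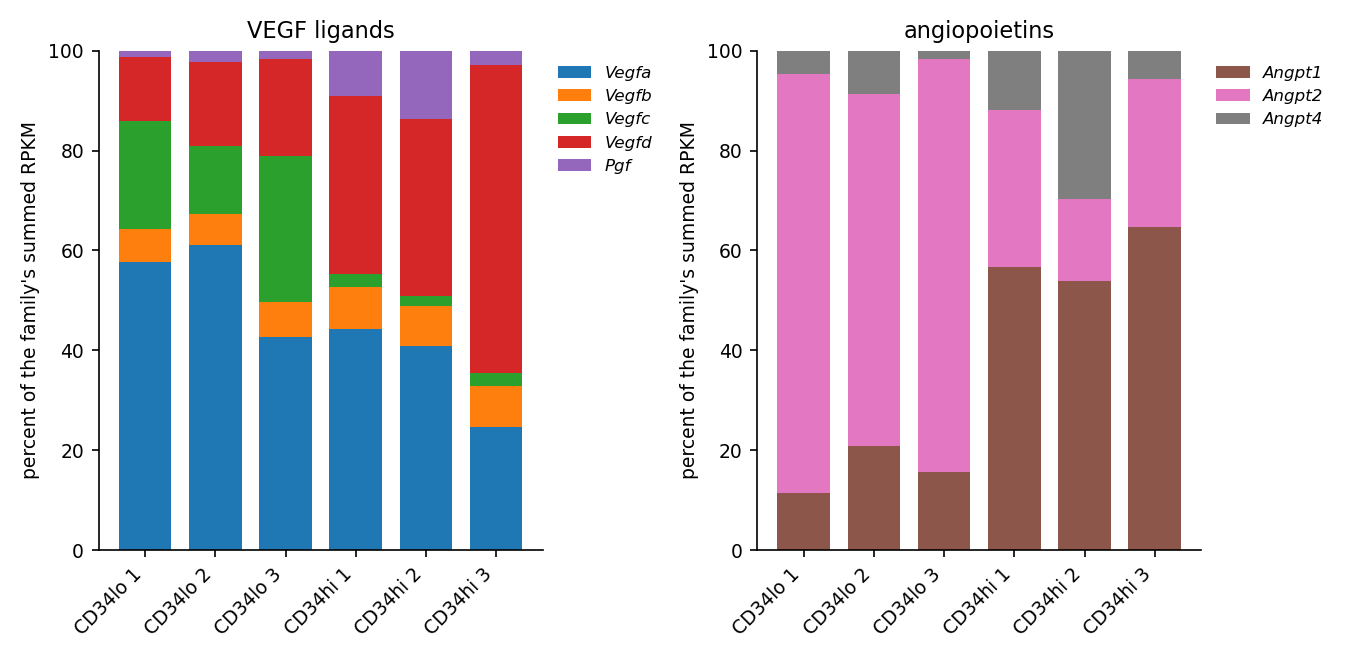
Share of each gene (percent, vertical axis) in the summed RPKM of the 5 VEGF ligands (left) and of the 3 angiopoietins (right), with 1 bar for each library. Vegfd takes more and Vegfc less of the VEGF sum in CD34hi, and Angpt2 takes 70.6% to 83.8% of the angiopoietin sum in CD34lo libraries.

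All 3 angiopoietin genes were higher in CD34lo fibroblasts. Angpt2, which encodes the context-dependent TIE2 antagonist, measured 1.19, 0.557 and 1.61 RPKM in CD34hi and 35.2, 27.4 and 41.8 RPKM in CD34lo libraries. The CD34hi values rested on 132, 50 and 181 counts, well above the limit of 3 counts. The log2 fold change was -4.94 ± 0.35, a 30.7-fold higher level in CD34lo (edgeR adjusted p = 1.82e-05), with -4.86, -5.57 and -4.68 within the pools. Angpt2 lies opposite Mcph1, with which it shares no exonic base in GENCODE vM21. Of the genes tested, 1.09% had an absolute log2 fold change as large or larger.

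Angpt1, which encodes the TIE2 agonist, measured 2.15, 1.83 and 3.50 RPKM in CD34hi and 4.82, 8.11 and 7.87 RPKM in CD34lo libraries. The groups did not overlap, and the log2 fold change was -1.47 ± 0.28, a 2.77-fold higher level in CD34lo (edgeR adjusted p = 0.00354). The exons of Angpt1 share 737 bases (14.2%) with the antisense gene Gm17473, and the library kit does not mark strand, so that reads of this stretch could come from either gene. Angpt4, which encodes another TIE2 ligand, was the lowest of the angiopoietins in CD34lo, with 0.453, 1.01 and 0.303 RPKM in CD34hi and 1.96, 3.34 and 0.861 RPKM in CD34lo libraries. Its groups overlapped, although CD34lo was higher within each pool. Its log2 fold change was -1.81 ± 0.57, or 3.52-fold (edgeR adjusted p = 0.0351), on 21 to 163 counts per library. This call was lost in 5 fits that left out samples and used no pool block. The edgeR adjusted p was 0.159 without pool 1, 0.105 without the CD34hi and 0.0763 without the CD34lo library of pool 1, 0.115 without the CD34lo library of pool 2, and 0.0922 without the CD34hi library of pool 3. Without the CD34hi library of pool 2 the log2 fold change was -2.42. The differences of Angpt4 within the pools were -2.04, -1.69 and -1.41. With all 6 libraries and the mouse pool as a block, its log2 fold change was -1.80 ± 0.29 (edgeR adjusted p = 0.000862).

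The summed RPKM of the angiopoietins was 3.39 to 5.41 in CD34hi and 38.9 to 50.5 in CD34lo libraries. Angpt1 formed the largest share in every CD34hi library, 53.8% to 64.6%, and Angpt2 in every CD34lo library, 70.6% to 83.8%. Angpt1 stood at 1.80, 3.25 and 2.17 times Angpt2 per length in CD34hi and at 0.137, 0.296 and 0.188 times in CD34lo libraries. The log2 ratio was therefore 1.22 ± 0.44 (SD) in CD34hi and -2.34 ± 0.56 in CD34lo. The difference of 3.56 was larger than the spread, with every CD34hi library above every CD34lo library. The two-sided exact permutation test gave p = 0.1 and the exact sign-flip test within pools gave p = 0.25, each the smallest that 3 pools allow.

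Of the angiopoietin-like genes, Angptl4 was higher in CD34lo fibroblasts and Angptl2 did not pass. Angptl4 measured 15.7, 18.2 and 43.7 RPKM in CD34hi and 77.3, 59.3 and 115 RPKM in CD34lo libraries. The groups did not overlap, and pool 3 was the highest in both. The log2 fold change was -1.70 ± 0.40, a 3.24-fold higher level in CD34lo (edgeR adjusted p = 0.0100), and -2.30 without the CD34hi library of pool 3. Angptl2, which encodes a secreted factor linked to inflammation and vessel growth, measured 175, 174 and 214 RPKM in CD34hi and 281, 199 and 226 RPKM in CD34lo libraries. CD34hi was lower within each pool, but the groups overlapped, and the log2 fold change was -0.33 ± 0.17 with a 95% interval of -0.71 to 0.055 (edgeR adjusted p = 0.165). Of 5 other angiopoietin-like genes, 4 were tested and 1 passed (25% called, beside 35.6% of all genes). Angptl7 was lower in CD34hi (log2 fold change -3.18 ± 0.46, edgeR adjusted p = 0.000788), whereas Angptl1 (-0.52 ± 0.27, edgeR adjusted p = 0.169) and Angptl6 (1.07 ± 0.37, edgeR adjusted p = 0.0533) did not pass.

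**Figure D3:**
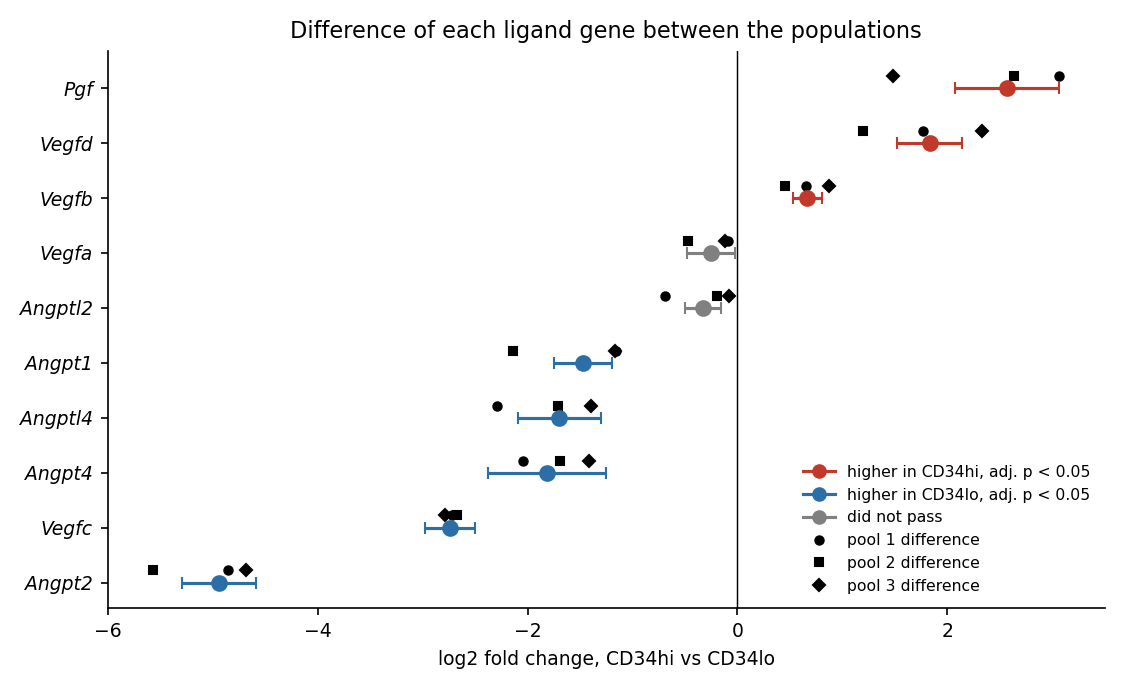
log2 fold change of CD34hi against CD34lo (horizontal axis) for the 10 ligand genes, with coloured points for the edgeR estimate, bars for its SE and small black markers for the differences within the 3 pools. The estimates run from Angpt2 at -4.94 to Pgf at 2.57. The pool differences of each gene lie on 1 side of 0, also for Vegfa and Angptl2, which did not pass. The share of all tested genes with this property was not counted.

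In order of level, Angptl2 was the highest of the 10 genes in both populations, at 188 ± 23.0 RPKM in CD34hi and 235 ± 42.0 RPKM in CD34lo (SD, n = 3). In CD34hi it was followed by Vegfd (58.2 ± 27.0), Vegfa (46.0 ± 8.81), Angptl4 (25.9 ± 15.5), Pgf (10.6 ± 6.40), Vegfb (10.5 ± 1.05), Vegfc (3.13 ± 0.71), Angpt1 (2.49 ± 0.89), Angpt2 (1.12 ± 0.53) and Angpt4 (0.589 ± 0.373). The library ranges of neighbouring genes overlapped except at the steps from Angptl2 to Vegfd, from Vegfb to Vegfc and from Angpt1 to Angpt2. In CD34lo the order after Angptl2 was Angptl4 (83.9 ± 28.4), Vegfa (54.7 ± 15.7), Angpt2 (34.8 ± 7.20), Vegfc (21.0 ± 5.54), Vegfd (16.3 ± 3.70), Angpt1 (6.93 ± 1.83), Vegfb (6.64 ± 0.52), Angpt4 (2.05 ± 1.24) and Pgf (1.82 ± 0.78). Here neighbours were separate at the steps from Angptl2 to Angptl4, from Angpt2 to Vegfc, from Vegfd to Angpt1 and from Vegfb to Angpt4. Angpt2 thus stood at the 26.5th percentile of the tested genes by mean RPKM in CD34hi and at the 89.8th in CD34lo, and Vegfc at the 40.8th and 83.0th percentile.

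Beside the ligands, 65 genes of their pathways were listed, and 64 were tested. Of these, 34 (53.1%) passed, 10 as higher in CD34hi and 24 as higher in CD34lo, beside 35.6% of all genes. Their median log2 fold change was -0.36. The lists were chosen for their known roles, with earlier results of these data known. They were described by counts, without a test of a list.

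Among the receptors, Tek and Kdr were higher in CD34hi and the neuropilins in CD34lo fibroblasts. Tek, which encodes TIE2, measured 117 ± 19.7 RPKM in CD34hi and 7.54 ± 2.45 RPKM in CD34lo (log2 fold change 3.95 ± 0.28, edgeR adjusted p = 1.67e-05). Kdr, which encodes VEGFR2, measured 9.74 ± 3.40 and 1.11 ± 0.344 RPKM (3.14 ± 0.31, edgeR adjusted p = 9.79e-05). The co-receptors of VEGF-C and VEGF-A, Nrp2 (-2.53 ± 0.16) and Nrp1 (-1.60 ± 0.20), and the VEGFR1 gene Flt1 (-1.24 ± 0.37) were lower in CD34hi. Flt4, the receptor gene for VEGF-C and VEGF-D, was near the limit of detection at 0.0334 and 0.0375 RPKM and did not pass (edgeR adjusted p = 0.869). Ptprb, a phosphatase acting on TIE2 (-1.81 ± 0.28), and Svep1, an extracellular ligand of the TIE1 receptor (-1.05 ± 0.30), were lower in CD34hi. Tie1 had a log2 fold change of -1.05 ± 0.37 that did not pass (edgeR adjusted p = 0.0537), but passed with the mouse pool as a block (edgeR adjusted p = 0.00795).

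VEGF-C and VEGF-D are secreted as precursors and are cut to their active forms. Of 6 genes of this processing, 3 (50%) were lower in CD34hi and 3 did not pass, beside 35.6% of all genes called. Ccbe1, which encodes the cofactor of VEGF-C cleavage, measured 0.115 RPKM in CD34hi and 3.79 RPKM in CD34lo (log2 fold change -5.01 ± 0.29, edgeR adjusted p = 6.71e-06). Adamts3, which encodes the protease that this cofactor assists, was lower in CD34hi by a log2 fold change of -2.69 ± 0.23 (edgeR adjusted p = 4.11e-05), as was the proprotein convertase gene Pcsk5 (-0.84 ± 0.13). Furin (0.04 ± 0.12) and Adamts14 (-0.37 ± 0.16) did not pass.

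**Figure D4:**
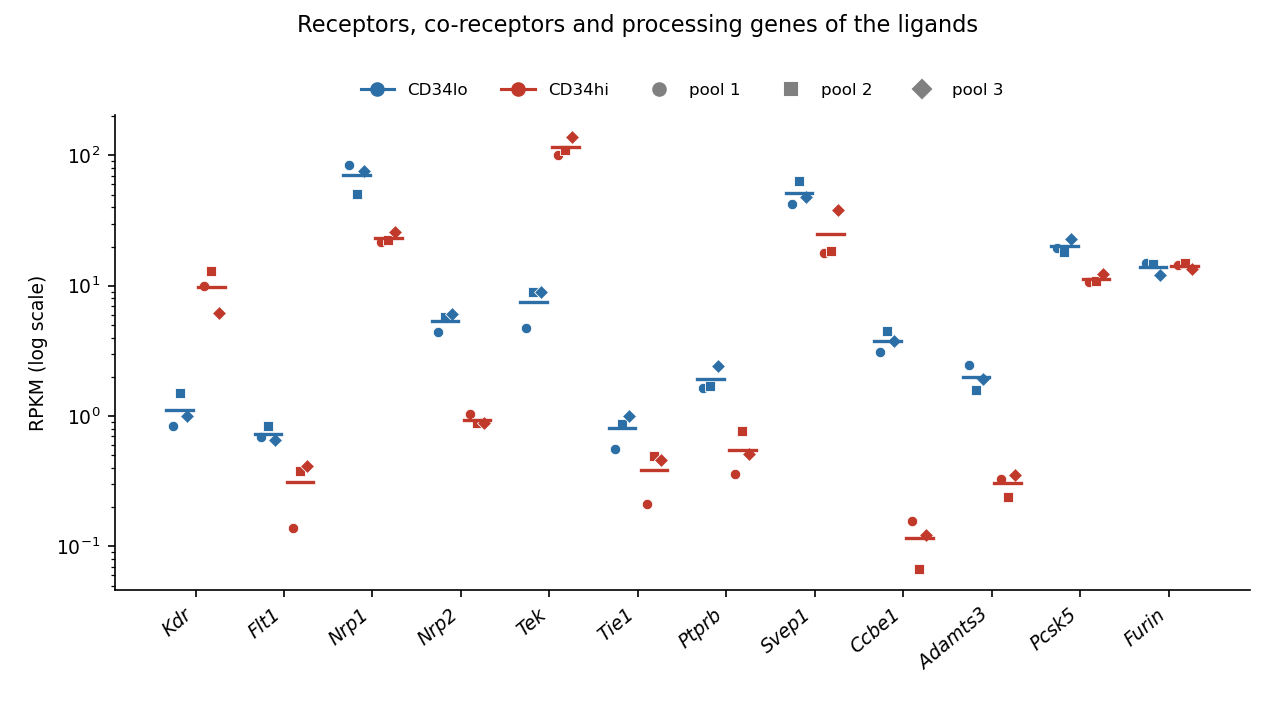
RPKM (vertical axis, log scale) of 12 receptor, co-receptor and processing genes in the 6 libraries, with CD34lo in blue and CD34hi in red, marker shapes for the 3 pools and bars for the means. Kdr and Tek are higher in CD34hi, Nrp1, Nrp2, Ccbe1, Adamts3 and Pcsk5 are higher in CD34lo, and Furin overlaps.

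Of 9 genes around ANGPTL4 and lipoprotein lipase, 3 were lower in CD34hi and 6 did not pass (33.3% called, beside 35.6% of all genes). Pparg, a nuclear receptor that induces Angptl4, had a log2 fold change of -1.91 ± 0.18 (edgeR adjusted p = 6.52e-05). Plin2, a lipid droplet coat gene (-1.39 ± 0.14), and Lpl, which encodes lipoprotein lipase itself (-0.67 ± 0.16), moved the same way. Cpt1a (-0.17 ± 0.21) and Lmf1 (-0.27 ± 0.12) did not pass, and Pdk4 passed only with the pool as a block (edgeR adjusted p = 0.0189, against 0.0912). The 5 adipocyte markers had a low summed level of 0.179 to 0.717 CPM in CD34hi and 0.482 to 1.81 CPM in CD34lo. The 1 marker tested, the lipid droplet gene Plin1, was higher in CD34lo (log2 fold change -2.82 ± 0.60, edgeR adjusted p = 0.00655), with 3, 6 and 6 counts in CD34hi and 67, 27 and 11 counts in CD34lo libraries 1 to 3. It thus moved in the direction of Angptl4, Pparg, Plin2 and Lpl, and the part of adipocytes in those differences was not tested.

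Several of the ligand genes are known targets of hypoxia-inducible factors. Of 18 genes of that pathway, 3 were higher in CD34hi, 4 were higher in CD34lo and 11 did not pass (7 of 18, or 38.9%, beside 35.6% of all genes). The factors themselves differed in opposite directions, with Epas1 (HIF-2α) at a log2 fold change of -2.26 ± 0.14 and Hif1a (HIF-1α) at 0.77 ± 0.12. Ldha (-1.09 ± 0.25), Car9 (-1.89 ± 0.54) and Egln3 (-0.97 ± 0.33) were lower in CD34hi, and Adm (0.97 ± 0.25) and Egln2 (0.89 ± 0.15) higher. Hif1a, Adm and Egln2 were named after their values were seen. Ndrg1 (0.32 ± 0.25) and Arnt (-0.30 ± 0.12) did not pass. With the pool as a block, Egln3 no longer passed (edgeR adjusted p = 0.0694), and Egln1, Slc2a1 and Ndrg1 did (0.0326, 0.0456 and 0.0488).

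Of 11 other secreted pro-angiogenic factors, 3 were higher in CD34hi, 5 were higher in CD34lo and 3 did not pass (72.7% called, beside 35.6% of all genes). Fgf2, which encodes basic fibroblast growth factor, had a log2 fold change of 3.13 ± 0.27 (edgeR adjusted p = 4.44e-05). The heparin-binding growth factor genes Mdk (-2.67 ± 0.23) and Ptn (-2.43 ± 0.29) were lower in CD34hi. Apela, which encodes an apelin receptor ligand, had 0 counts in the CD34hi and 134 counts in the CD34lo libraries, at least 13.7-fold higher in CD34lo against a limit of 3 counts per library. Ccn1 (0.14 ± 0.14) and Egfl7 (-1.10 ± 0.48) did not pass. Ang, at 0.37 ± 0.13, was called without the pool block (edgeR adjusted p = 0.0480) and not with it (0.0557), and was named for that reason. Of 7 secreted inhibitors, 2 were higher in CD34hi, 3 were higher in CD34lo and 2 did not pass (71.4% called, beside 35.6%). Col18a1, the source of endostatin (-3.05 ± 0.18), and Thbs1, thrombospondin-1 (-1.71 ± 0.24), were lower in CD34hi, whereas Vash1, vasohibin-1 (2.40 ± 0.30), and Timp3 (1.18 ± 0.19) were higher. For TIMP-3 the study reported the opposite direction in secreted protein of cultured cells, with more from CD34lo fibroblasts. Thbs2 (0.47 ± 0.25) and Vash2 (-0.14 ± 0.19) did not pass.

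Vessel-associated cells also express Angpt1, Angpt2, Tek and Kdr, and markers of such cells moved with the populations. Of 10 pericyte and smooth muscle markers, 9 were tested, 7 were higher in CD34lo and 1, Kcnj8, was higher in CD34hi (88.9% called, beside 35.6% of all genes). Their summed level was 144 to 200 CPM in CD34hi and 234 to 309 CPM in CD34lo. Most of the CD34hi sum came from Abcc9 (123 and 106 CPM), which did not pass, and Kcnj8 (34.7 and 13.3 CPM). Myh11 (-3.88 ± 0.22), Acta2 (-3.36 ± 0.16) and Notch3 (-3.28 ± 0.31) were the furthest apart, and the pericyte marker Rgs5 stood at 0.801 and 2.19 CPM. The part of such cells in the higher Angpt1, Angpt2, Angpt4, Vegfc and Angptl4 of CD34lo libraries was not tested. In bulk samples, fewer cells of a type and less RNA per cell cannot be told apart.

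Of 10 blood endothelial markers, 2 (Tek and Kdr) were higher in CD34hi, 3 were higher in CD34lo and 5 did not pass (50% called, beside 35.6% of all genes). The summed level was 540 to 705 CPM in CD34hi and 69.9 to 113 CPM in CD34lo, and without Tek and Kdr it was 12.9 to 33.9 CPM and 43.4 to 65.3 CPM. The endothelial-defining genes Pecam1 (6.65 and 14.7 CPM) and Cdh5 (3.03 and 7.40 CPM) were thus lower in CD34hi, opposite to Tek and Kdr. Of 5 lymphatic markers, 4 were tested and 1, Reln, was higher in CD34lo (25% called, beside 35.6%). The other 3 tested did not pass. Their summed level was 3.11 to 4.52 CPM in CD34hi and 9.13 to 12.0 CPM in CD34lo, and most of the CD34lo sum came from Reln (2.03 and 8.12 CPM). Among the markers, Ccl21a had 0 counts in 3 libraries and Flt4 in 1. The leukocyte sum was 17.8 to 20.6 CPM in CD34hi and 9.35 to 12.7 CPM in CD34lo. Of 5 tested leukocyte markers, 1 was higher in each population and 3 did not pass (40% called, beside 35.6%). Most of the CD34hi sum came from Cd3e (14.9 and 3.78 CPM), the marker higher in CD34hi. Cd79a (0.874 and 1.82 CPM) was higher in CD34lo, and Adgre1 had 0 counts in 3 libraries. The epithelial sum was 67.6 to 93.5 CPM and 33.1 to 45.7 CPM. Of 6 epithelial markers, 1 was higher in CD34hi and 5 did not pass (16.7% called, beside 35.6%). The higher sum came from that marker, Krt19 (50.7 and 8.03 CPM), whereas Krt8 (15.7 and 15.1 CPM) and Epcam (5.96 and 4.82 CPM) did not pass. The Schwann cell sum was 37.9 to 48.4 CPM and 15.1 to 17.9 CPM. Of 4 Schwann cell markers, 1 was higher in CD34hi and 2 in CD34lo (75% called, beside 35.6%). Most of the CD34hi sum came from Mbp (41.4 and 11.3 CPM), the marker higher in CD34hi. The keratinocyte sum was 14.3 to 19.9 CPM and 3.60 to 7.12 CPM, with both of 2 markers higher in CD34hi (100% called, beside 35.6%). The part of these cells in the differences of the ligand genes was not tested.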

How the data were processed

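Bulk RNA-seq counts of 3 CD34hi and 3 CD34lo libraries from 3 pools of 2 mice were analysed. Per the study's methods, TruSeq RNA v2 libraries were sequenced on a NextSeq instrument, and the reads were aligned to GRCm38/mm10 and counted with Rsubread. The authors deposited raw counts of reads on each gene, which are whole numbers that carry no normalization. The annotation and the treatment of multi-mapping reads are not given in the sources used here.

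Symbols from a gene table matched 25275 of 27179 identifiers. In R 4.3.3, edgeR 4.0.16 applied filterByExpr (15219 genes kept), TMM normalization and the quasi-likelihood test of CD34hi against CD34lo without a block, with Benjamini-Hochberg adjustment over all tested genes and a threshold of 0.05. The study's own test, limma-voom (limma 3.58.1 here), and DESeq2 1.42.0 were alternatives, beside other scaling factors, filters, thinned counts, leaving out pools or libraries, and a pool block. RPKM divided the normalized CPM by the deposited gene length. Within-library ratios used a pseudocount of 0.5 counts and exact tests. The procedure was tested on simulated data. Per the labels the population libraries of 1 number share a mouse pool, and the deviations of same-pool libraries from their population means correlated across genes at 0.28, 0.08 and 0.24. Replicate libraries differed by more than counting noise (chi-square per degree of freedom of 23.9 or more). The limit of 3 counts covers counting error only. Exon overlaps were read from GENCODE vM21 and promoters from RefSeq. The ligand genes were all named. From every other list the rule took up to 4 genes with the largest absolute log2 fold change among those that passed and up to 2 with the highest mean level that did not. Hif1a, Adm, Egln2 and Ang, genes whose call moved with the block and some markers were named beyond this rule, after their values were seen. The genes and lists were chosen with earlier results of these data known.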

Additional observations from a re-analysis of the deposited data

How the results depend on the processing

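All 10 ligand genes kept their direction in each of 18 alternatives, and 175 of 180 gene results kept their side of the threshold. The other 5 were the lost calls of Angpt4 when samples were left out, with log2 fold changes from -1.82 to -1.30. Of the ligand genes, 7 or 8 passed in every alternative. A minimum absolute log2 fold change of 1 gave 7, without Vegfb. Leaving out single pools or libraries gave 3468 to 5236 genes called over all tested genes against 5411, with 3468 without pool 1, and 26 to 31 pathway genes against 34. That minimum left 2986 genes. When mouse pool was added as a replicate block, edgeR called 6161 and limma-voom 6418 genes, and the block changed no call of a ligand gene. It moved the calls of 7 pathway genes, all named above. The difference between CD34hi and CD34lo in the log2 ratio of Angpt1 to Angpt2 ranged from 3.30 to 3.86. For the log2 ratio of Vegfc plus Vegfd to Vegfa it ranged from 0.35 to 1.22. Paired within pools, these differences were 3.56 and 0.87, each with an exact sign-flip p of 0.25. Few counts limited Flt4, Car9 and Apela, and 3 pools limited the exact tests.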
